A study of Mus musculus with 21 samples.

Results

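Genes of the unfolded protein response were followed in microglia, the resident macrophages of the brain, with and without apolipoprotein E (ApoE), which carries lipids between brain cells. The members were 10 genes taken by symbol, namely the transcription factors Xbp1, Atf4 and Ddit3, the degradation factor Herpud1, the co-chaperone Dnajb9, the chaperones Hspa5, Hsp90b1 and Calr, and the disulfide isomerases Pdia4 and Pdia6. All 10 were found in both deposited tables, which held 18079 genes in the genotype experiment and 13297 genes in the injection experiment. In the genotype experiment, 4 libraries (KO) were labelled as uninjected females of the strain B6.129P2-Apoetm1Unc/J, in which Apoe is disrupted in the germ line and so in all cell types, and 7 libraries (WT, numbered 1 to 4 and 6 to 8) as uninjected C57BL/6 females. In the injection experiment, both groups were labelled as males of the same knockout strain, with 5 libraries after recombinant APOE in PBS (rAPOE) and 5 after PBS alone. The labels give an age of 12 to 18 weeks for all groups and, for the injected mice, an injection into the left hemisphere 16 h before both hemispheres were collected. The hemisphere behind each library is not labelled, and neither is whether replicate libraries came from different animals. The p-values therefore rest on a spread between libraries that may be technical. The experiments were normalised apart, and levels are not compared between them.

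The endoplasmic reticulum (ER) folds secreted and membrane proteins, and a surplus of unfolded protein there sets off the unfolded protein response through the sensors IRE1, PERK and ATF6. IRE1 splices the Xbp1 transcript into the form that encodes the active factor, PERK slows translation and raises ATF4 and then CHOP (the product of Ddit3), and ATF6 is cut to release a transcription factor. The targets are chaperones, folding enzymes and factors that send misfolded protein to the proteasome, and in macrophages the same pathway is engaged by lipid loading and by inflammatory stimuli. The 3′ tags counted here measure total Xbp1 transcript and cannot tell the spliced from the unspliced form.

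Promoter sequence is shown for the 5 members with a match to a published ER stress response element, because the members that carry it did not move together below. Promoters of all 10 members were found in the RefSeq table for GRCm38.p6, which gives 250 bases before and 50 bases after each gene start. The element searched was CCAAT, 9 bases of any kind and CCACG, on either strand. It was present in 39 of 32851 promoters (0.119%), and among them in those of Hspa5, Hsp90b1, Calr and Pdia6. A shorter form, ATTGG, 1 base of any kind and CCACG, was present in 12 promoters (0.0365%), including that of Herpud1. ATTGG is CCAAT read on the other strand, both forms end in CCACG, and no member held both. The element TGACGTGG was present in 222 promoters (0.676%) and TGATGCAAT in 63 (0.192%), and in 0 of the 10 members on either strand. Xbp1, Dnajb9, Pdia4, Ddit3 and Atf4 held no match to any of the 4, which says only that these letters were not in the window. The 250 bases before the start are printed along the gene's own strand, with the match in capitals, for Herpud1 at chr8:94386179-94386428 (plus strand, match from -52 to -42 relative to the start), Hspa5 at chr2:34771840-34772089 (plus strand, -65 to -47), Hsp90b1 at chr10:86705445-86705694 (minus strand, a match on its own strand from -212 to -194 and one on the opposite strand from -107 to -89), Calr at chr8:84846932-84847181 (minus strand, on the opposite strand from -162 to -144) and Pdia6 at chr12:17266339-17266588 (plus strand, -98 to -80).
Herpud1: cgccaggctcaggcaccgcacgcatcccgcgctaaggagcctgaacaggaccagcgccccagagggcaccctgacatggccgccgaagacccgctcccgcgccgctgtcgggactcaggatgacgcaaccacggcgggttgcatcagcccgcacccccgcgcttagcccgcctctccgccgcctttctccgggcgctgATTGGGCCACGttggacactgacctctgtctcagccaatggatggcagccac
Hspa5: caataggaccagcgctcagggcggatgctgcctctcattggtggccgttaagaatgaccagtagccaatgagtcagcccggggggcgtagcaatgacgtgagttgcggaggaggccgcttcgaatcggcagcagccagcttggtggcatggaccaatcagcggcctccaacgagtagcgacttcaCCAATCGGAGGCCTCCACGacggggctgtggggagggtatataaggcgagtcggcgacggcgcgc
Hsp90b1: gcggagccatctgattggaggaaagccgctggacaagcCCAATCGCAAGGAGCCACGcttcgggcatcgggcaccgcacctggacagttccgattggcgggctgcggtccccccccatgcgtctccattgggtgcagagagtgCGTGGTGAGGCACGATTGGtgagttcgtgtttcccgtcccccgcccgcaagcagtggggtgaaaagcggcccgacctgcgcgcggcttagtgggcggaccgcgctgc
Calr: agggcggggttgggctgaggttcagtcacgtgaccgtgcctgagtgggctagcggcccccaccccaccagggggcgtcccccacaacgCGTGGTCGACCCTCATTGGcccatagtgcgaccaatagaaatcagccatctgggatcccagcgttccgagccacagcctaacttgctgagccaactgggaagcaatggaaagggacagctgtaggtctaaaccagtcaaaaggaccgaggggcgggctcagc
Pdia6: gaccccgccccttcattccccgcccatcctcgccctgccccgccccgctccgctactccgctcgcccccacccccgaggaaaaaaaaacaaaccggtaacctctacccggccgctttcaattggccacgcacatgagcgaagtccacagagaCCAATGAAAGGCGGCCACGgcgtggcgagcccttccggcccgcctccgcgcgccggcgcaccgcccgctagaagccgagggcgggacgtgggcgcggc

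Apoe checked the genotype labels. Its normalised count, the read count divided by a library-wide factor, was 10.2, 0, 0 and 23.1 in KO libraries, against 13196 to 17163 in WT libraries other than 8 and 1011 in WT library 8. After injection it was 0 to 8.54 in rAPOE libraries and 0 to 1.32 in PBS libraries. KO libraries held 4247865 to 4969287 reads over 8117 to 10479 detected genes, and WT libraries 2016972 to 3054976 reads over 13592 to 15248 genes. Mitochondrial ribosomal RNA took 0.647% to 0.886% of KO reads and 1.36% to 4.67% of WT reads, with WT library 8 the highest and no overlap between genotypes. rAPOE libraries held 857059 to 1119059 reads and PBS libraries 704225 to 1347501. In both injection groups, libraries 4 and 5 detected 10025 to 11342 genes and libraries 1 to 3 detected 7601 to 8837, so results are also given within these library sets. Some libraries stood apart or went against their labelled sex. Y-linked reads numbered 0 in KO libraries and WT library 8, where Xist was at 1980 to 3292, while in the other WT libraries, also labelled female, Xist was at 1127 to 1279 beside 11 to 36 Y-linked reads. rAPOE library 5 and PBS library 5, labelled male, held Xist at 718 and 979 and 0 Y-linked reads. Of 10 microglia markers, 5 were higher in KO, with summed levels of 80581 to 95182 in KO libraries and 65213 to 71388 in WT libraries. Markers of other cells were lower in KO in some lists and not in others. For choroid plexus and ependyma 9 of 9 tested markers were lower, with summed levels of 440 to 872 in KO libraries. The sums were 57436 to 83538 in WT libraries other than 8 and 23768 in WT library 8. Folr1, Sostdc1, Foxj1 and Ccdc153 of that list were at 0 in every KO library. For neuron markers (8 of 10 lower; Map2, Rbfox3 and Slc17a7 at 0 in every KO library) the sums were 0 to 108 in KO libraries, 1090 to 1392 in WT libraries other than 8 and 90.3 in WT library 8. For monocyte and border macrophage markers (4 of 9 lower; S100a4 and Plac8 at 0 in every KO library) they were 136 to 234 in KO libraries, 1693 to 1975 in WT libraries other than 8 and 229 in WT library 8. Of tested astrocyte, oligodendrocyte and endothelial markers, 7 of 8, 3 of 6 and 2 of 8 were lower in KO. Of 7 neutrophil markers 0 were called either way, with a median log2 difference of 0.78, and of 0.24 without WT library 8. Their sums were 1598 to 6321 in KO libraries, 2069 to 2751 in WT libraries other than 8 and 190 in WT library 8. The part of these markers and of the ribosomal RNA share in the genotype results was not tested, and in such bulk samples fewer cells of a type and less RNA per cell cannot be told apart.

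Without ApoE, the members did not move as 1 group. Transcripts of Xbp1, Herpud1 and Dnajb9 were 2.12-fold, 2.40-fold and 3.12-fold as high in KO as in WT, that of Pdia6 1.34-fold, and those of the chaperone Hsp90b1 and the isomerase Pdia4 were 0.472-fold and 0.580-fold. Hspa5, Calr, Ddit3 and Atf4 did not pass the test. Each of the 6 that passed did so with groups that did not overlap. With limma and a Benjamini-Hochberg adjusted p under 0.05, 4 of 10 members were higher and 2 lower, where 5.14% of the 10401 genes tested were higher and 19.8% lower (25% either way, and 36.5% at an unadjusted p under 0.05). Groups did not overlap in 3.67% of all genes tested on the higher side and in 10.6% on the lower side (14.3% either way). edgeR also called 4 members higher and 2 lower (4.8% and 11.1% of all genes). DESeq2 (6.3% and 15.8%) and the limma fit without WT library 8 (7.64% and 23%) added Hspa5 on the lower side. Quantile rescaling (8.85% and 9.87%) and the replicate block (3.95% and 13.5%, libraries 1 to 4 of each group alone) dropped Pdia6. The median log2 difference was -0.13 over the members and -0.45 over all genes tested, and quantile rescaling moved the median of all genes to 0.09. Set against that median, all 6 members that passed kept their side under both scalings, as Xbp1 with 1.53 and 0.99 and Hsp90b1 with -0.61 and -1.21, while Hspa5, Calr, Ddit3 and Atf4 lay 0.19 to 0.37 above it as deposited and 0.20 to 0.28 below it after quantile rescaling.

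**Figure D1:**
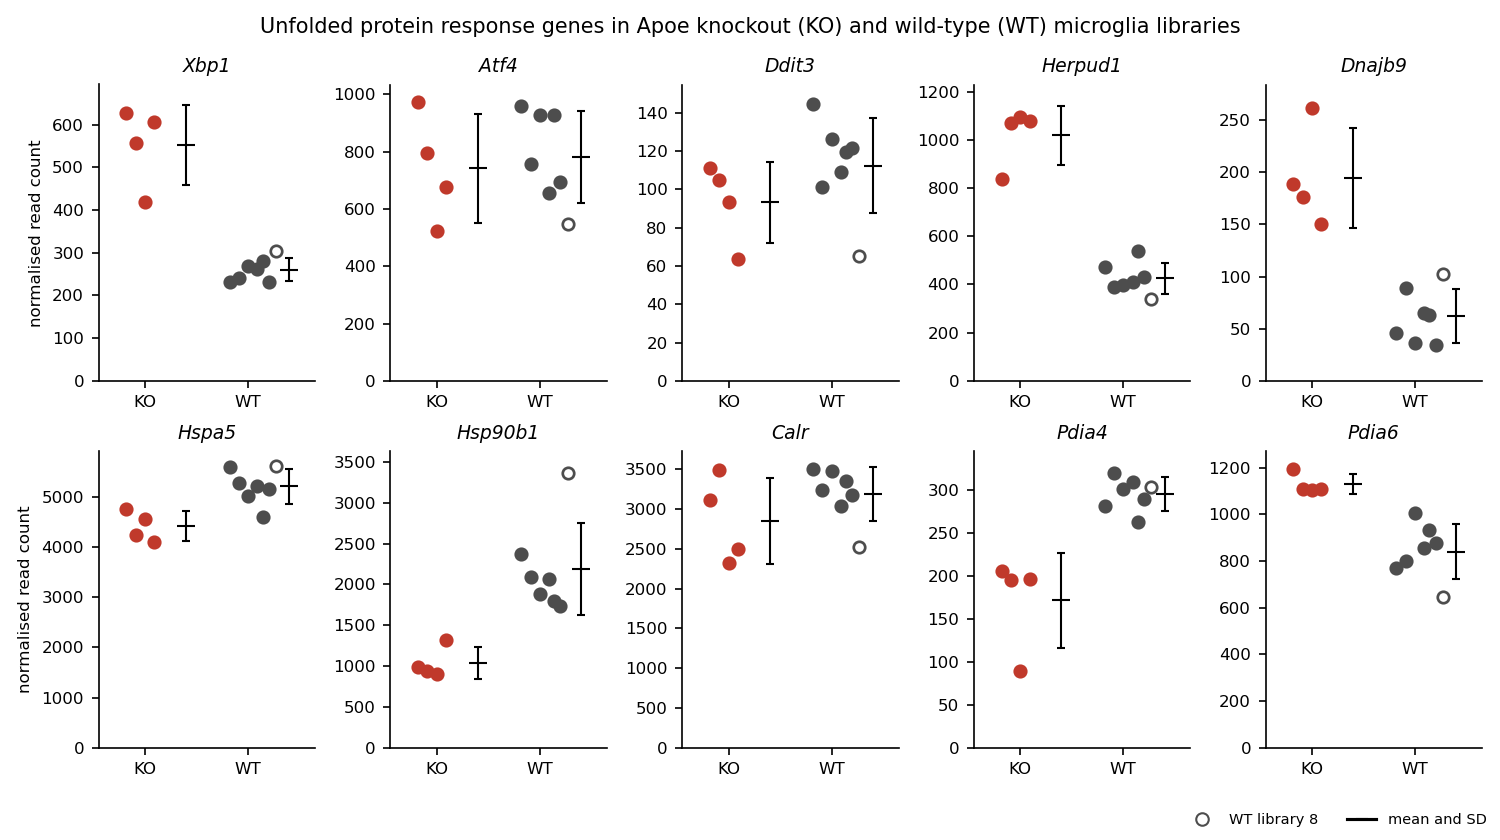
Normalised read count of each member in KO libraries (red, n = 4) and WT libraries (grey, n = 7; WT library 8 is open), 1 point per library, with mean and SD in black; each vertical axis starts at 0. The KO points lie above all WT points for Xbp1, Herpud1, Dnajb9 and Pdia6, below them for Hsp90b1 and Pdia4, and overlap them for the other members.

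Among the transcription factors, Xbp1 passed and Atf4 and Ddit3 did not. Xbp1, the factor downstream of IRE1 (chromosome 11, 5520659 to 5525893, plus strand, GRCm38), was at 628, 558, 419 and 606 in KO libraries, against 232, 262 and 305 (lowest, median and highest of 7) in WT libraries. The lowest KO library, 3, lay above the highest WT library, 8. The log2 difference was 1.07 (SE 0.15, limma adjusted p = 0.000159), and 1.11 without WT library 8. Atf4, which drives amino acid supply and redox genes when PERK is active, was at 972, 794, 522 and 677 in KO libraries, against 547, 756 and 958 (lowest, median and highest) in WT libraries. The groups overlapped along nearly their whole range, and the log2 difference was -0.08 (SE 0.19, limma adjusted p = 0.778; 95% interval -0.50 to 0.33). Ddit3, the pro-apoptotic factor CHOP, was at 111, 105, 93.4 and 63.4 in KO libraries, against 65, 119 and 145 (lowest, median and highest) in WT libraries. These also overlapped, with a log2 difference of -0.26 (SE 0.26, limma adjusted p = 0.490; 95% interval -0.83 to 0.30). ATF4 is controlled mainly at translation, which transcript counts do not measure. The last exon of Ddit3 overlaps Mars on the opposite strand, and the strand setting of the counting is not given in the sources used here, so tags of the pair may be mixed.

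Herpud1 and Dnajb9, both ER-resident targets of the response, had the largest differences of the members on the higher side. Herpud1, an ER membrane protein that recruits substrates to the ubiquitin ligases of ER-associated degradation (chromosome 8, 94386438 to 94395377, plus strand, GRCm38), was at 836, 1069, 1094 and 1079 in KO libraries, against 338, 409 and 538 (lowest, median and highest) in WT libraries. Every KO library exceeded every WT library, and KO library 1 was the lowest of its group. The log2 difference was 1.26 (SE 0.15, limma adjusted p = 2.84e-05), on 8837 reads in KO and 2779 reads in WT. Dnajb9 (ERdj4), a co-chaperone that stimulates the ATPase of Hspa5 and brings it to IRE1, was at 189, 177, 262 and 150 in KO libraries, against 34.7, 63.1 and 103 (lowest, median and highest) in WT libraries. The groups did not overlap, although WT spread widely, with a coefficient of variation of 41.9%. On the log2 scale the difference was 1.70 (SE 0.33, limma adjusted p = 0.00193; 95% interval 0.99 to 2.41), and 1.84 without WT library 8, the highest of WT.

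Of the chaperones, Hsp90b1 was lower and Hspa5 and Calr did not pass. Hsp90b1 (GRP94), the ER form of HSP90 that folds Toll-like receptors and integrins, was at 982, 935, 896 and 1320 in KO libraries, against 1741, 2062 and 3367 (lowest, median and highest) in WT libraries. The highest KO library, 4, lay below the lowest WT library, 7, and WT library 8 was the highest of all. The log2 difference was -1.07 (SE 0.18, limma adjusted p = 0.000582), and -0.96 without WT library 8. The last exon of Hsp90b1 overlaps the pseudogene 1810014B01Rik on the opposite strand. Hspa5 (BiP), the main ER chaperone, which holds the sensors inactive until unfolded protein draws it away, was at 4773, 4253, 4566 and 4112 in KO libraries, against 4616, 5223 and 5618 (lowest, median and highest) in WT libraries. KO library 1 lay above WT library 6 alone, so the groups overlapped in that pair. The log2 difference was -0.24 (SE 0.11, limma adjusted p = 0.141), and without WT library 8 it was -0.22 and passed (adjusted p = 0.0283). Calr, the calcium-binding chaperone of glycoproteins, was at 3107, 3487, 2317 and 2499 in KO libraries, against 2524, 3238 and 3501 (lowest, median and highest) in WT libraries. KO libraries 3 and 4 lay below every WT library and KO library 2 above most, and the log2 difference was -0.17 (SE 0.14, limma adjusted p = 0.396).

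The 2 disulfide isomerases, which form and reshuffle disulfide bonds in new proteins, moved apart. Pdia6, which also shuts off IRE1 by reducing it, was at 1195, 1109, 1103 and 1111 in KO libraries, against 645, 857 and 1004 (lowest, median and highest) in WT libraries. All KO libraries lay above all WT libraries within a narrow band. Its log2 difference was 0.44 (SE 0.13, limma adjusted p = 0.0250), and the call was lost without KO library 1 (adjusted p = 0.0604) or WT library 1 (adjusted p = 0.0511). The last exon of Pdia6 overlaps Atp6v1c2 on the opposite strand. Pdia4 was at 205, 195, 89 and 196 in KO libraries, against 262, 300 and 320 (lowest, median and highest) in WT libraries. KO library 3 stood far below the other KO libraries, and all 4 lay below WT. The log2 difference was -0.85 (SE 0.22, limma adjusted p = 0.00995), and -0.57 without KO library 3 (adjusted p = 0.0139).

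**Figure D2:**
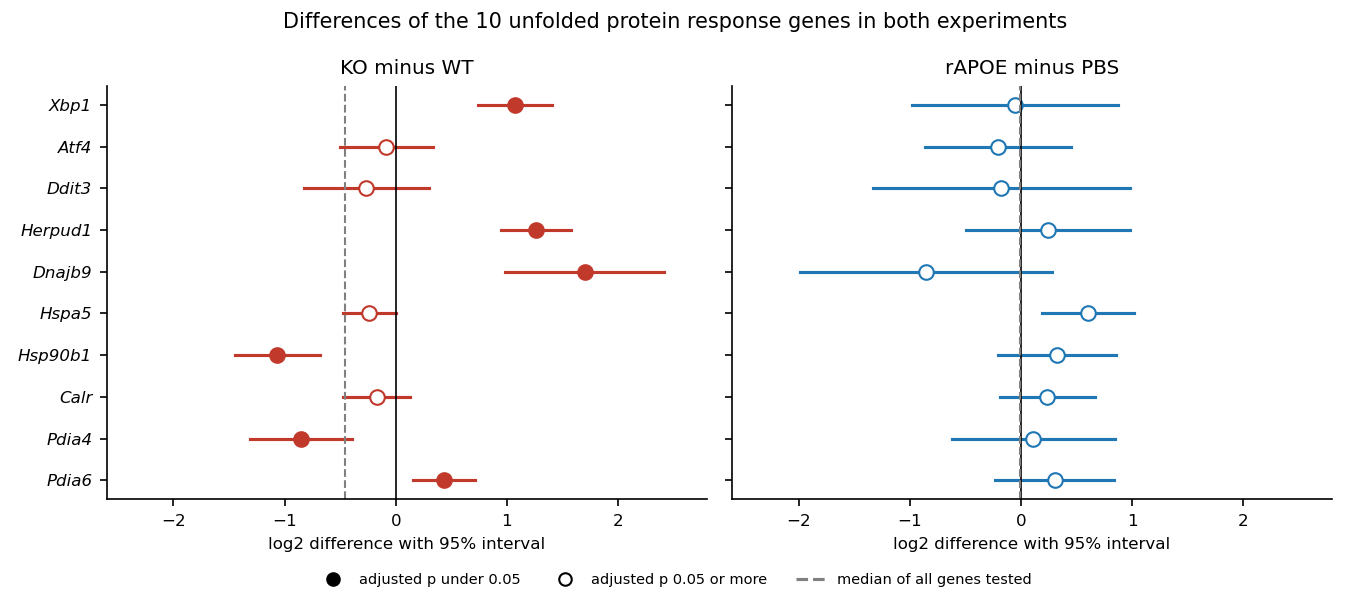
Log2 difference of each member with its 95% interval, KO minus WT on the left and rAPOE minus PBS on the right; filled points had a limma adjusted p under 0.05, and the dashed line is the median of all genes tested (-0.45 and -0.01). On the left 4 filled points lie above 0 and 2 below it, and on the right all points are open, with Hspa5 the one member whose interval does not reach 0.

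In WT library 8 the sex transcripts and the sums of neuron, oligodendrocyte, endothelial and monocyte markers lay within the KO range. The sums of choroid plexus, astrocyte, neutrophil and microglia markers and the share of mitochondrial ribosomal RNA lay outside it. The member values of WT library 8 are therefore set beside KO. The groups did not overlap for the 6 members that passed. As part of the WT group, WT library 8 therefore had to lie on the WT side of every KO library. The KO mean was 3.02-fold its level for Herpud1, 1.81-fold for Xbp1, 1.89-fold for Dnajb9 and 1.75-fold for Pdia6, and 0.307-fold for Hsp90b1 and 0.564-fold for Pdia4. These are ratios to a single library, with no test. Genes induced by tissue dissociation (12 listed) summed to 9887 to 13998 in KO libraries and 7590 to 14246 in WT libraries, with 1 of 12 higher. Their part in the differences was not tested.

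Ratios of members within a library do not depend on the library's scaling, and 4 are described here, chosen after their values were seen and given with no test. Herpud1 to Hsp90b1 was 0.817 to 1.22 in KO libraries and 0.100 to 0.300 in WT libraries, so the 2 ranges were far apart. Hsp90b1 to Hspa5 was 0.196 to 0.321 in KO libraries and 0.336 to 0.599 in WT libraries, and Dnajb9 to Hspa5 was 0.0366 to 0.0574 in KO libraries and 0.00671 to 0.0183 in WT libraries. Pdia6 to Pdia4 was 5.68 to 12.4 in KO libraries and 2.13 to 3.55 in WT libraries. For none of the 4 did the groups overlap. For Herpud1 to Hsp90b1, Pdia6 to Pdia4 and Dnajb9 to Hspa5 this adds nothing to the member results. In the first 2 of these pairs 1 member was higher and the other lower in KO with no overlap, so the ratio had to separate. Dnajb9 was at 150 or more in KO and 103 or less in WT. Hspa5 was at 4773 or less in KO and 4616 or more in WT, so the ratio of Dnajb9 to Hspa5 had to separate too. The share of other gene pairs that separate was not counted. After injection, Herpud1 to Hsp90b1 (0.159 to 0.370 in rAPOE libraries, 0.194 to 0.570 in PBS libraries), Hsp90b1 to Hspa5 (0.153 to 0.332 in rAPOE libraries, 0.166 to 0.453 in PBS libraries) and Pdia6 to Pdia4 (3.395 to 5.19 in rAPOE libraries, 1.39 to 6.67 in PBS libraries) overlapped. Dnajb9 to Hspa5 was 0.00482 to 0.0151 in rAPOE libraries and 0.0121 to 0.0408 in PBS libraries, where only PBS library 4 lay within the rAPOE range.

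**Figure D3:**
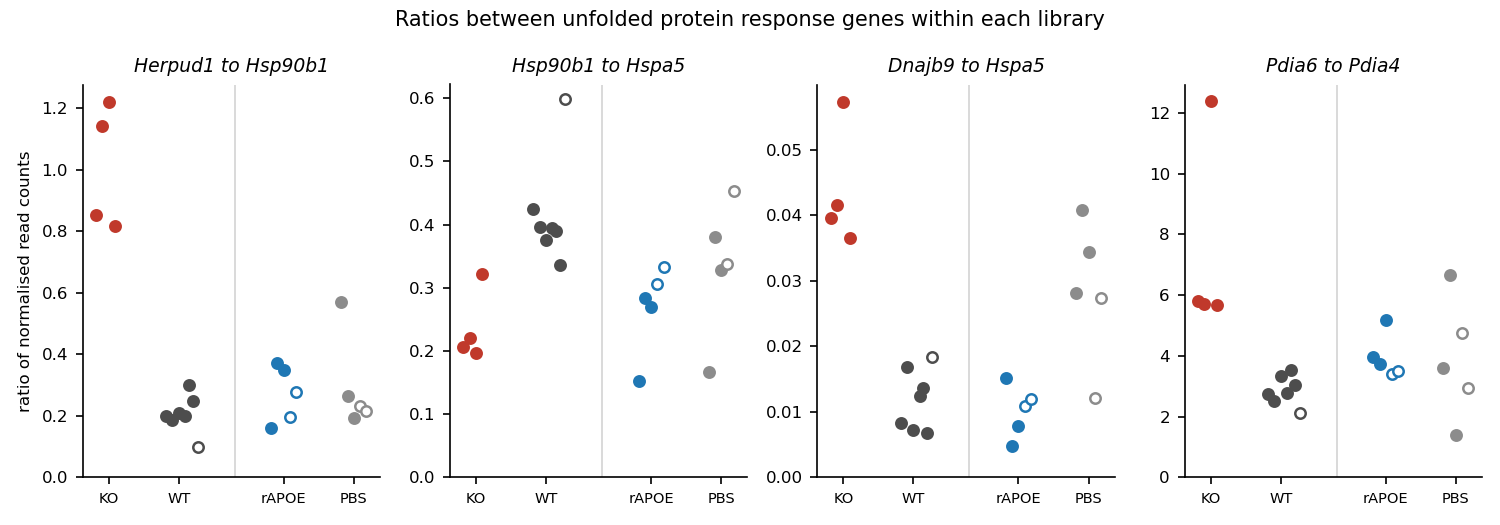
Ratio of the normalised read counts of 2 members in each library, for KO and WT libraries left of the grey line and rAPOE and PBS libraries right of it; open points are WT library 8 and libraries 4 and 5 of the injection groups. In each panel the KO and WT points do not overlap, as for Herpud1 to Hsp90b1 with 0.817 to 1.22 in KO libraries and 0.100 to 0.300 in WT libraries. For that ratio and for Pdia6 to Pdia4 the separation is fixed by the members, which moved apart without overlap. For Dnajb9 to Hspa5 it is fixed by the ranges of the members as well.

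Other genes of the pathway were counted in 6 lists with 106 entries, of which 98 were tested between genotypes. In KO 8 were higher and 14 lower, and without WT library 8 these counts were 13 and 19. Of all genes tested 5.14% were higher and 19.8% lower, and without WT library 8 these shares were 7.64% and 23%. The limma counts per list that follow stand beside the same shares, and no list was tested as a set. The median log2 difference was -0.14 over the lists and -0.45 over all genes. Among 9 sensors and activating proteases 1 was higher, Tmbim6, an ER membrane protein that restrains IRE1 (1218 ± 84.6 in KO and 954 ± 106 in WT, SD, n = 4 and 7; limma adjusted p = 0.0419). The call for Tmbim6 was lost when any single library other than KO 4 or WT 8 was left out (highest adjusted p = 0.106), in edgeR (adjusted p = 0.0667) and after quantile rescaling (adjusted p = 0.135). Transcripts of the sensors themselves did not pass.

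Of 16 ER chaperones and co-chaperones 0 were higher and 4 lower by limma, with 1 higher at an unadjusted p under 0.05. In edgeR 0 and in DESeq2 1 were higher, and so was 1 in limma without WT library 8. The 4 were Dnajc10, a reductase that helps to clear misfolded glycoproteins (70.6 ± 26.3 in KO and 155 ± 28.1 in WT, adjusted p = 0.00663), Calu, a calcium-binding protein of the secretory pathway (202 ± 89.2 in KO and 355 ± 41.2 in WT, adjusted p = 0.0125), and both chains of glucosidase II, Prkcsh (107 ± 23.2 in KO and 166 ± 8.95 in WT, adjusted p = 0.0209) and Ganab (280 in KO and 401 in WT, means, adjusted p = 0.0283). In edgeR 2 of the list were lower, Dnajc10 and Prkcsh, so Calu (adjusted p = 0.0508) and Ganab missed the threshold there. After quantile rescaling 2 were lower, Dnajc10 and Calu, so Prkcsh (adjusted p = 0.0804) and Ganab missed it. The list median of -0.48 was near that of all genes, -0.45. Of 13 disulfide and proline folding enzymes 0 were higher by limma (2 at an unadjusted p under 0.05, 1 each in edgeR and DESeq2) and 3 were lower, the sulfhydryl oxidase Qsox1 (115 ± 22.1 in KO and 252 ± 49.7 in WT, limma adjusted p = 0.00186), the oxidase Ero1l (7.45 ± 12.4 in KO and 30.2 ± 10.5 in WT, adjusted p = 0.0129) and the proline isomerase Fkbp2 (164 ± 66.1 in KO and 267 ± 30.1 in WT, adjusted p = 0.0275). Ero1l had 67 reads in KO and missed the threshold in edgeR, DESeq2 and after quantile rescaling (adjusted p = 0.257, 0.131 and 0.428), and Fkbp2 missed it in edgeR (adjusted p = 0.0925) and in limma without KO library 2 or 3 or WT library 4 or 6 (highest adjusted p = 0.0678).

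Of 21 factors of ER-associated degradation, the list that Herpud1 serves, 2 were higher and 1 lower, with 14 of 21 above 0 and a median of 0.28. Selenos, a selenoprotein that links the retrotranslocation machinery, was at 829 ± 211 in KO and 572 ± 76.2 in WT (limma adjusted p = 0.0386), and the ubiquitin-conjugating enzyme Ube2g2 at 216 ± 51.5 in KO and 133 ± 40.1 in WT (adjusted p = 0.0492). Most single libraries left out ended the calls for Selenos (highest adjusted p = 0.131) and Ube2g2 (highest adjusted p = 0.130). Ube2g2 also missed the threshold in edgeR (adjusted p = 0.0601) and Selenos after quantile rescaling (adjusted p = 0.0598). Os9, a lectin that delivers glycoproteins for degradation, was lower, at 294 ± 91.2 in KO and 463 ± 36.4 in WT (adjusted p = 0.0173), with KO library 1 at 159. Of 16 translocation factors 2 were higher, the signal recognition particle receptor chain Srprb (114 ± 15.2 in KO and 54.9 ± 15.0 in WT, adjusted p = 0.0151) and the signal peptidase subunit Spcs2 (607 ± 204 in KO and 354 ± 40.3 in WT, adjusted p = 0.0209, but 0.0622 without KO library 3 and 0.0736 without KO library 4). Sec63, which couples the translocon to Hspa5, was lower, at 106 ± 34.9 in KO and 272 ± 63.9 in WT (limma adjusted p = 0.000770).

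Of 24 targets of ATF4 and CHOP 3 were higher and 6 lower, with a median of -0.58, which was 0.02 after quantile rescaling. Atf3, a stress-induced transcription factor, was at 355 ± 41.6 in KO and 791 ± 156 in WT (limma adjusted p = 0.000107). The lipoprotein receptor gene Vldlr had 0 reads in all KO libraries, against 226 reads in WT libraries, and was at least 94.2-fold lower in KO at a floor of 3 reads over the group (adjusted p = 2.83e-05). Ddit4, an inhibitor of mTORC1, was higher, at 145 ± 63.2 in KO and 59.6 ± 18.5 in WT (adjusted p = 0.0126). The others were the factor Cebpg (442 in KO and 234 in WT, means, adjusted p = 0.0243) and the amino acid transporter Slc7a5 (91.1 in KO and 43.2 in WT, adjusted p = 0.0385) on the higher side, and the cystine transporter Slc7a11, the folate enzyme Mthfd2, the seryl-tRNA synthetase Sars and Ero1l, which stands in both lists, on the lower side. edgeR called 2 of this list lower and 3 higher.

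In knockout brain, 16 h after rAPOE, 0 of 10 members passed in limma. Hspa5 was 1.51-fold as high after rAPOE as after PBS with no overlap between groups. It was the one member with an unadjusted p under 0.05, and its limma adjusted p was 0.225. Herpud1, Hsp90b1, Calr, Pdia4 and Pdia6 had positive differences of 0.11 to 0.32 on the log2 scale, and Xbp1, Dnajb9, Ddit3 and Atf4 negative ones of -0.85 to -0.05, none past an unadjusted p of 0.05. Of the 7066 genes tested, 0.368% were higher and 0.113% lower (0.481% either way), and 11.2% had an unadjusted p under 0.05, as 1 member (Hspa5) had. By edgeR 0 members were called (0.326% of all genes higher, 0.0142% lower). DESeq2 (1.82% higher, 1.32% lower of the genes it tested) and quantile rescaling (0.637% higher, 0.311% lower) called Hspa5 higher. Groups did not overlap in 1.59% of all genes on the higher side and in 1.54% on the lower side (3.13% either way), and among members in Hspa5 alone.

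**Figure D4:**
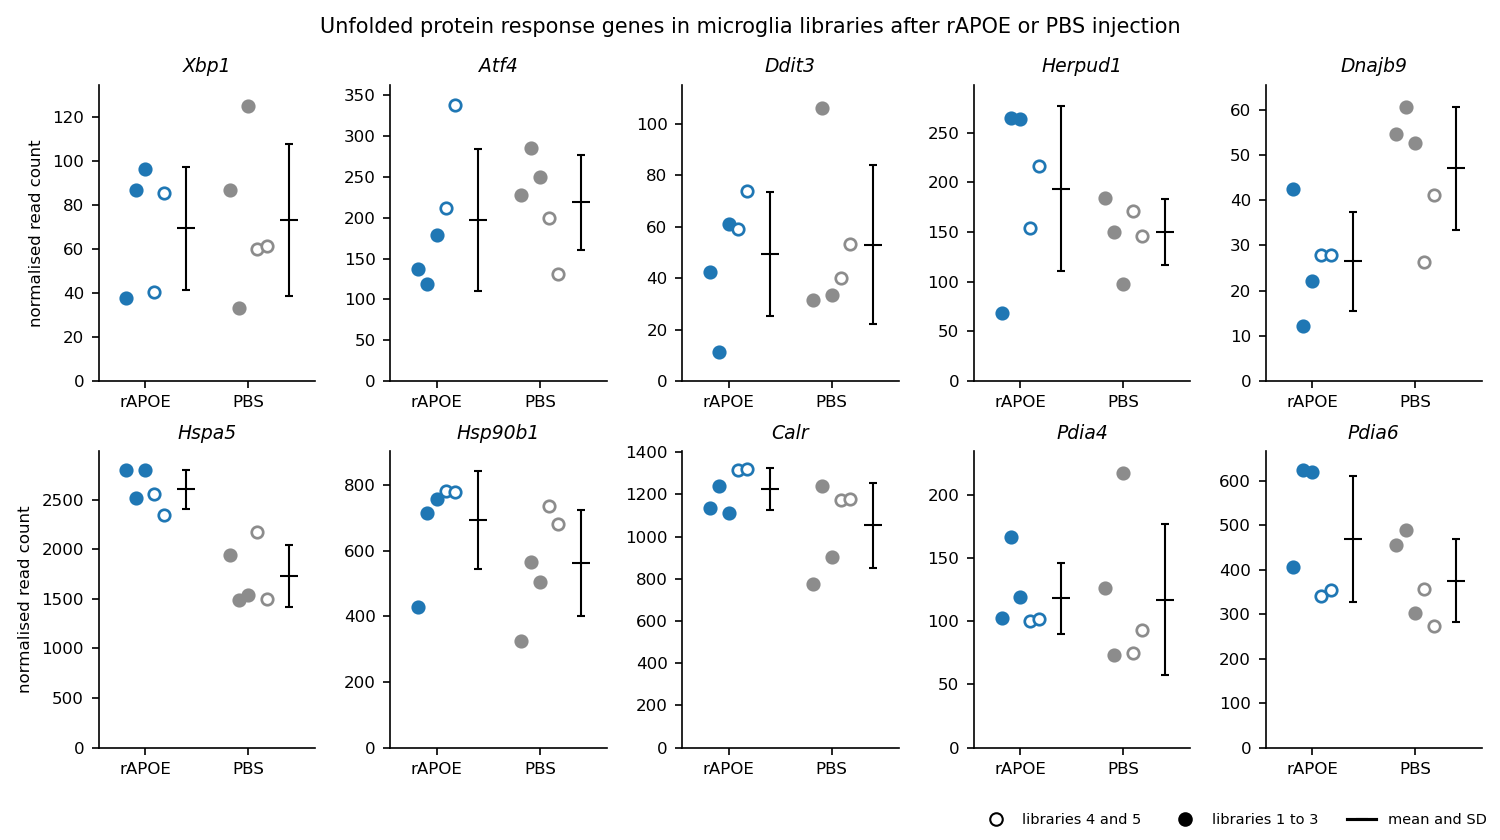
Normalised read count of each member in rAPOE libraries (blue, n = 5) and PBS libraries (grey, n = 5), with libraries 4 and 5 open and mean and SD in black; each vertical axis starts at 0. All rAPOE points lie above all PBS points for Hspa5, and the groups overlap for the other members.

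Hspa5, the chaperone that the sensors read out, was at 2801, 2514, 2805, 2556 and 2343 in rAPOE libraries, against 1944, 1487, 1538, 2176 and 1501 in PBS libraries. The lowest rAPOE library, 5, lay above the highest PBS library, 4. The log2 difference was 0.61 (SE 0.20, unadjusted p = 0.00600 and adjusted p = 0.225 in limma; 95% interval 0.19 to 1.02). It passed in DESeq2 (0.59, adjusted p = 0.0346) and after quantile rescaling (0.72, adjusted p = 0.0386), and not in edgeR (adjusted p = 0.390). Within libraries 1 to 3 it was 0.72 and within libraries 4 and 5 it was 0.44, both positive and neither called (limma adjusted p = 0.539 and 0.365), and without both libraries numbered 5 it was 0.60 (adjusted p = 0.485). These 3 fits called 0.0868%, 2.73% and 0.157% of all genes. Beside it, microglia markers (1 of 10 lower, and 7 of 10 lower at an unadjusted p under 0.05, with a median log2 difference of -0.61) summed to 13000 to 25938 in rAPOE libraries and 21756 to 29008 in PBS libraries. Dissociation genes (1 of 12 lower, and 5 of 12 at an unadjusted p under 0.05) summed to 2697 to 6033 in rAPOE libraries and 4351 to 10742 in PBS libraries, and mitochondrial ribosomal RNA took 11.6% to 20.1% of rAPOE reads and 10.8% to 16.5% of PBS reads. Their part in the Hspa5 values was not tested.

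The other chaperones showed smaller differences with overlap. Hsp90b1 was at 429, 714, 758, 781 and 779 in rAPOE libraries, against 324, 566, 504, 734 and 680 in PBS libraries. Library 1 was the lowest of both groups, and the log2 difference was 0.32 (SE 0.26, limma adjusted p = 0.680; 95% interval -0.21 to 0.85). Calr was at 1135, 1240, 1110, 1315 and 1321 in rAPOE libraries, against 775, 1239, 901, 1171 and 1176 in PBS libraries. The groups overlapped, with 3 rAPOE libraries above every PBS library, and the log2 difference was 0.24 (SE 0.21, limma adjusted p = 0.709). Pdia6 was at 405, 623, 620, 340 and 355 in rAPOE libraries, against 457, 489, 302, 356 and 274 in PBS libraries, and Pdia4 at 100 to 166 in rAPOE libraries, against 73.3 to 218 in PBS libraries. For both isomerases the groups overlapped, with log2 differences of 0.30 (SE 0.26) and 0.11 (SE 0.35) and limma adjusted p of 0.708 and 0.943.

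Xbp1, Herpud1 and Dnajb9, which were higher in KO, did not pass after rAPOE. Xbp1 was at 37.7, 86.8, 96.4, 40.4 and 85.5 in rAPOE libraries, against 86.9, 32.9, 125, 59.9 and 61.1 in PBS libraries. Low and high libraries occurred in both groups, and the log2 difference was -0.05 (SE 0.45; 95% interval -0.98 to 0.88). Herpud1 was at 68.3, 264, 264, 154 and 216 in rAPOE libraries, against 185, 150, 97.6, 171 and 146 in PBS libraries. The rAPOE group held both the lowest and the highest values, and the log2 difference was 0.25 (SE 0.36; 95% interval -0.49 to 0.98). Dnajb9 was at 42.4, 12.1, 22.1, 27.9 and 28.0 in rAPOE libraries, against 54.6, 60.7, 52.8, 26.3 and 41.2 in PBS libraries. PBS libraries 1 to 3 lay above every rAPOE library and PBS libraries 4 and 5 within the rAPOE range, and the log2 difference was -0.85 (SE 0.55, limma adjusted p = 0.589; 95% interval -1.99 to 0.28), on 142 reads in rAPOE and 251 reads in PBS. These 3 genes had 142 to 1060 reads a group and coefficients of variation of 22.1% to 47.4%, and what set the width of their intervals was not tested.

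Atf4 and Ddit3 are given by library set, where their differences had opposite signs. Atf4 was at 137, 119 and 179 in rAPOE libraries 1 to 3, against 228, 286 and 250 in PBS libraries 1 to 3. It was at 213 and 338 in rAPOE libraries 4 and 5, against 200 and 131 in PBS libraries 4 and 5. All rAPOE libraries lay below all PBS libraries in the first set and above them in the second, with log2 differences of -0.82 (SE 0.41) and 0.73 (SE 0.33), and -0.20 (SE 0.32, limma adjusted p = 0.853) over both. A limma interaction term gave 1.55 (SE 0.54, unadjusted p = 0.00991, adjusted p = 0.9999 over 7066 genes) for the difference between sets. Ddit3, with 279 reads in rAPOE and 287 in PBS, was at 11.1 to 73.8 in rAPOE libraries and 31.4 to 106 in PBS libraries, with a log2 difference of -0.18 (SE 0.56), -0.63 within libraries 1 to 3 and 0.50 within libraries 4 and 5.

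Of the 90 pathway list genes tested after injection, 0 passed in limma and in edgeR. DESeq2 called 2 higher and 1 lower, beside 1.82% and 1.32% of all genes it tested. At an unadjusted p under 0.05 limma had 8 higher and 1 lower, beside 11.2% of all genes either way. The median log2 difference of the 90 was 0.22, against -0.01 over all genes. Of 15 ER chaperones and co-chaperones, 11 had positive differences, with a median of 0.61 in limma and 0.40 in edgeR. Positive differences numbered 13 of 16 for translocation factors (median 0.25), 14 of 20 for targets of ATF4 and CHOP (0.33), 6 of 11 for folding enzymes (0.21), 5 of 8 for sensors and proteases (0.06) and 10 of 21 for ER-associated degradation (-0.04). The genes that follow were chosen after their values were seen. Dnajb11, the co-chaperone ERdj3, whose promoter holds the shorter element also found in Herpud1, was at 113, 271, 348, 152 and 169 in rAPOE libraries, against 63.7, 94.8, 115, 88.9 and 106 in PBS libraries. All but rAPOE library 1 lay above every PBS library, and the log2 difference was 1.07 (SE 0.34, limma adjusted p = 0.211, DESeq2 adjusted p = 0.0412). Txndc11, a thioredoxin-domain protein of the ER, was at 170, 72.6, 83.3, 57.4 and 42.0 in rAPOE libraries, against 28.1, 22.8, 24.0, 27.7 and 18.7 in PBS libraries. Every rAPOE library exceeded every PBS library, and the log2 difference was 1.62 (SE 0.49, limma adjusted p = 0.192, DESeq2 adjusted p = 0.0134). Cebpg, a basic leucine zipper factor that pairs with ATF4, was at 120, 40.4, 122, 59.0 and 36.5 in rAPOE libraries, against 177, 201, 130, 184 and 218 in PBS libraries. Every rAPOE library lay below every PBS library, and the log2 difference was -1.42 (SE 0.38, limma adjusted p = 0.113, DESeq2 adjusted p = 0.0490).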

How the data were processed

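The 21 libraries are QuantSeq 3′ FWD libraries of total RNA read on an Illumina MiniSeq, per the labels' protocols. HTSeq, DESeq2, Picard 1.8.4, R 3.2.3 and GRCm38.p3 are named, with no role, per the submitters' processing notes, while the aligner, annotation and strand setting were not stated in the sources used. The authors deposited a signal per gene, reads divided by a library-wide factor, normalised apart for each experiment. In each library 100% of values were whole multiples of 1 step within 0.01, so read counts were recovered. Of 18221 genotype entries, 22 with dates for names (0.0966% of the values) and 120 at 0 throughout were left out.

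Values were tested as log2(value + 1), a scale that understates changes of low genes, in limma 3.58.1 (R 4.3.3, eBayes with trend), after genes whose mean was under 10 were dropped, with Benjamini-Hochberg adjustment over all genes tested and a threshold of 0.05. All 10 members passed that filter in both experiments. Alternatives were TMM and quantile rescaling, pseudocounts, filters, edgeR 4.0.16 and DESeq2 1.42.0 on recovered reads, single libraries left out and library sets. The genes named are the members and up to 3 genes per pathway list that passed, by adjusted p, and others named were chosen after their values were seen. The members, lists and tests were chosen with earlier results of these data known. Gene positions are from GENCODE M21 (GRCm38). Reads carry no molecular identifiers, so floors cover counting error only. The result of 1 marker list is not reported here.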

Additional observations from a re-analysis of the deposited data

Results flagged for a closer look

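Dixon's rule flagged a library in 8 of 72 sets of 1 gene in 1 group, where chance gives about 1 in 20. The rule sets the gap to the nearest library against the range of the group on the log2 scale. A small gap in a narrow group, as for Pdia6 in KO, can therefore be flagged. In KO, library 1 was low for Herpud1 (836, others 1069 to 1094) and high for Pdia6 (1195, others 1103 to 1111), and low for Os9 (159, others 318 to 355). KO library 3 was low for Pdia4 (89, others 195 to 205). In WT, library 8 was low for Qsox1 (146, others 238 to 287) and high for Atf3 (1125, others 653 to 811), and library 4 was high for Selenos (733, others 503 to 590). After injection, rAPOE library 1 was low for Hsp90b1 (429, others 714 to 781). For the members Herpud1, Pdia6 and Pdia4 the groups did not overlap, so each of these libraries had to lie on its group's side.

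Atf4 was below PBS in each rAPOE library of the set 1 to 3 and above PBS in each of the set 4 and 5, a difference between sets of 1.55 on the log2 scale that did not pass the adjusted test of the difference itself (limma interaction, adjusted p = 0.9999). The labels do not say what the library sets are.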

How the results depend on the processing

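The calls for Herpud1, Xbp1, Dnajb9, Hsp90b1 and Pdia4 held in each of the 26 fits of the genotype experiment, that as reported included. Pdia6 (0.44) kept its sign and missed the threshold after quantile rescaling (0.38, adjusted p = 0.0937), without the trend (adjusted p = 0.128), without KO library 1 or WT library 1 and with the replicate block (0.40, adjusted p = 0.0502). Hspa5 was called lower in DESeq2 (-0.24), with libraries 1 to 4 alone (-0.26), and without WT library 8 (-0.22 as deposited, -0.21 with TMM), and Calr (-0.25) with quantile rescaling and no WT library 8. Atf4 turned to 0.073 without KO library 3, with a range of -0.23 to 0.073 with 1 library left out. Pathway list genes called higher in KO (8) came to 14 in DESeq2 and with TMM and no WT library 8, 13 with quantile rescaling and no WT library 8, 3 without the trend and with the block, and 3 to 13 with 1 library left out. Those called lower (14) came to 8 after quantile rescaling and 7 in edgeR, with the block and with libraries 1 to 4 alone, and 10 to 19 with 1 library left out. All genes called (2596) came to 1289 at a mean of at least 50, 1658 in edgeR and 3669 with no filter. With 1 library left out they came to 2007 to 3169, the highest without WT library 8.

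After rAPOE, 1 member (Hspa5, 0.72 and 0.59) was called higher with quantile rescaling and in DESeq2. Pathway list genes called came to 2 higher and 1 lower in DESeq2, and 1 lower in libraries 4 and 5 alone and without rAPOE library 3 (0 to 1 with 1 library left out). All genes called (34) came to 70 at a pseudocount of 8, 67 with quantile rescaling, 114 in DESeq2, 12 without the trend, 52 with the block, 73 with the library set as a term, 6 in libraries 1 to 3, 192 in libraries 4 and 5, 11 without both libraries numbered 5, and 16 to 74 with 1 library left out. Members with no call changed sign without 1 library, Xbp1 to 0.042, 0.11, 0.14 or 0.17 (range -0.30 to 0.17), Pdia4 to -0.027, -0.021 or -0.018 (range -0.027 to 0.36) and Ddit3 to 0.28 or 0.11 (range -0.38 to 0.28). In libraries 4 and 5 alone Ddit3 was 0.50 and Atf4 0.73. The causes were not tested.

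Deviations of libraries with the same number had r of -0.0157 to 0.0167 between genotypes. After injection r was -0.00418 to 0.0208 for numbers 1 to 3, 0.185 for number 4 (highest with another number 0.0973) and 0.112 for number 5 (0.141). Not every pair was over 0.1, so the numbers were not taken as pairs. Between genotypes the block was fitted to libraries 1 to 4 of each group alone. Against the fit of all libraries, the member call that differed was that of Pdia6. Against libraries 1 to 4 without the block, the calls of Pdia6 and Hspa5 were both lost. After injection Dnajb9 and Ddit3 rest on 142 to 287 reads a group, and the part of depth in their spread was not tested.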
